A study of Mus musculus with 18 samples.

Results

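The genes described here are 9 markers of fetal-like and revival epithelium, followed in cultured organoids of mouse intestine, small hollow bodies of epithelium that form from crypt cells in a gel. They were chosen by symbol, as Ly6a, Clu, Msln, Il33, Gja1, Il1rn, Ly6d, Ly6c1 and Spp1, and all 9 were found among the 24116 genes of the expression table. All organoids were C57BL/6 wild type from animals aged 8 weeks, so the groups do not differ by genotype. They differ by the day of culture and the medium, and days 1 and 2 also by the mice named in the titles. Messenger RNA was sequenced in 3 libraries at each of day 0, day 1, day 2, day 3, day 4 and day 5, which makes 18 libraries.

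EGF, Noggin and R-spondin were in the medium on all days, with the GSK3 inhibitor CHIR99021 (3 µM) until day 1 and Wnt3a-conditioned medium (20%) and the ROCK inhibitor Y-27632 (10 µM) until day 3. Day and medium thus change together, and their parts in a difference between days cannot be told apart. Each library pooled 30 wells. The sample titles name 3 organoid lines. Mouse 1 gave replicate 1, and mouse 3 gave replicate 3, on every day, while replicate 2 is titled mouse 2 on all days but days 1 and 2, where it is titled mouse 1. By the titles, comparisons of day 1 or day 2 with another of the days thus also differ in the lines used. The main fit treats all libraries as independent, replicates 1 and 2 of days 1 and 2 included. Replicate 1 was also the library without DNase treatment on each day, so on days 0, 3, 4 and 5 mouse 1 and the lack of treatment cannot be told apart. The labels give no other sign of separate cultures, and the p-values measure the spread between these libraries.

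When the adult intestinal epithelium is injured, or when its cells are placed in culture, many cells leave the crypt stem cell state for a while and switch on genes of the fetal gut epithelium. Ly6a (the Sca-1 antigen) is the usual surface marker of that state in the mouse, and Clu (clusterin) marks the revival stem cell, a rare cell that regenerates the crypt after damage. The transcriptional co-activator YAP, which acts through the TEAD factors, is known to drive much of this program, and AP-1 factors often act beside TEAD.

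The RefSeq promoter table, on assembly GRCm38.p6, held 10 entries for 5 of the markers, namely Gja1, Il1rn, Il33, Ly6c1 and Spp1. Each entry covers 250 bases before the start site and 50 after it. Both strands of each entry were searched for the TEAD letters GGAATG, the AP-1 letters TGANTCA and the TCF/LEF letters CTTTGAT. The stretches before the start site of 3 genes are shown, because they hold a match and because the RNA of 2 of these genes changed between days while that of the third stayed near 0. Capitals mark the match, and no match overlapped another.
Il33, first start, chr19:29924863-29925112, plus strand: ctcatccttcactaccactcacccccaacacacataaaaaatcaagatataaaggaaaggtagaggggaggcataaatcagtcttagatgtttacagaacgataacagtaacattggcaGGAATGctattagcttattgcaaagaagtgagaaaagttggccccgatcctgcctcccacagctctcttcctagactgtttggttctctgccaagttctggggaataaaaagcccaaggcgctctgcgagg
Il33, second start, chr19:29945540-29945789, plus strand: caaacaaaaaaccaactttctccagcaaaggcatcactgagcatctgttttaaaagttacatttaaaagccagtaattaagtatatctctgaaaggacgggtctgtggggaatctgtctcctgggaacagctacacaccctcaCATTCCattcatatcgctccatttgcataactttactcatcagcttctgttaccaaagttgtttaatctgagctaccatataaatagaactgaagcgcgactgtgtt
Il1rn, first start, chr2:24336610-24336859, plus strand: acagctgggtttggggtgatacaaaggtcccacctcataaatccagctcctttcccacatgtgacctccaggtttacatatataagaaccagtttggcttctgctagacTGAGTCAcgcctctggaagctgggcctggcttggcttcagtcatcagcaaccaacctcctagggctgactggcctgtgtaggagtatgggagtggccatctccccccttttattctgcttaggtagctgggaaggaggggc
Gja1, chr10:56377050-56377299, plus strand: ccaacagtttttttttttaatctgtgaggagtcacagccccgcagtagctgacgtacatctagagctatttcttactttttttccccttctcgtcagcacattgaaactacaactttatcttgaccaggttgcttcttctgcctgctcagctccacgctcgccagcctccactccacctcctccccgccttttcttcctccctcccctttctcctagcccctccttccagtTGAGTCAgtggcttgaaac

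The TEAD letters stood 131 bases upstream of the first Il33 start, as GGAATG, and 107 bases upstream of the second, as the complement CATTCC. A TEAD match also lay 24 bases upstream of the third Il1rn start. The AP-1 letters stood 141 bases upstream of the first Il1rn start and 19 bases upstream of Gja1. Of 32851 promoter entries of the genome, 14.7% held the TEAD letters, 7.81% the AP-1 letters and 3.73% the TCF/LEF letters. The 2 entries of Ly6c1 and the 2 of Spp1 held none of the 3 motifs. A match describes letters in a window and shows no binding.

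Levels are given in RPKM, a read density in which counts are divided by gene length and library size, so that genes of different length can be set side by side. Libraries held an implied 43010000 to 53930000 reads, and 1 RPKM stood for 43 to 54 reads per kilobase. Tests were made with limma on log2(RPKM + 1), and every adjusted p-value below comes from limma with Benjamini-Hochberg adjustment over 11111 genes that reached 1 RPKM in at least 3 libraries. Of the 9 markers, 6 passed that filter: Ly6a, Clu, Msln, Il33, Il1rn and Ly6d. Ly6c1, Gja1 and Spp1 did not, and are described by their values alone.

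All 8 epithelial identity genes examined were found, with summed levels of 2046 to 7048 RPKM. Markers of other tissues that can also express some of the 9 genes were low. Below 1 RPKM in every library were 8 of 10 mesenchymal markers (2 of them at 0 throughout), 8 of 11 immune markers (1 at 0), 7 of 8 endothelial markers (1 at 0) and 5 of 7 mesothelial markers. Col1a1, Pdgfra, Ptprc, Pecam1 and Wt1 were among them. The summed levels were 0.708 to 6.57 RPKM for the mesenchymal list, 3.98 to 8.18 for the immune list, 1.06 to 4.92 for the endothelial list and 1.22 to 7.81 for the mesothelial list. As these are bulk libraries, fewer cells of a type and less RNA per cell cannot be told apart.

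The markers were near their lowest in the day 0 libraries, and 5 of the 6 tested rose by day 1: Msln, Ly6a, Clu, Il1rn and Il33. No marker passed between any day and the next after that. At day 5 Clu and Msln remained above day 0, while Ly6a, Il1rn and Il33 lay below their day 1 values in every library without passing limma. Beyond the days, single libraries differed widely, replicate 2 of day 3 being the highest of all 18 for 5 of the 6 tested markers.

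Markers of intestinal cell types moved between the same days. The Paneth cell markers summed to 540 to 757 RPKM at day 0, 147 to 182 at day 1 and 2726 to 3702 at day 5. The lower sum at day 1 does not describe each gene of the list. Of 9 tested, 1 was called lower by day 1 (Itln1) and 1 higher (Ang4), with a median log2 change of -0.08. Over all tested genes, 9.05% were called lower and 9.54% higher. Of 13 tested crypt stem cell genes, 3 were called lower at day 1 and 1 higher, with a median log2 change of -0.48. Olfm4, Lgr5 and Smoc2 fell (log2 change -4.67, -2.40 and -1.85, limma adjusted p = 0.00122, 0.0316 and 0.0223), while Ascl2 rose (1.73, 0.0477). The list summed to 308 to 594 RPKM at day 0, 198 to 370 at day 1 and 603 to 816 at day 5. Enterocyte markers summed to 1808 to 2489 RPKM at day 0, 3124 to 7314 at day 1 and 22343 to 26751 at day 5, and goblet cell markers to 215 to 591, 308 to 377 and 1880 to 2750. Their part in the values of the 9 markers was not tested.

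**Figure D1:**
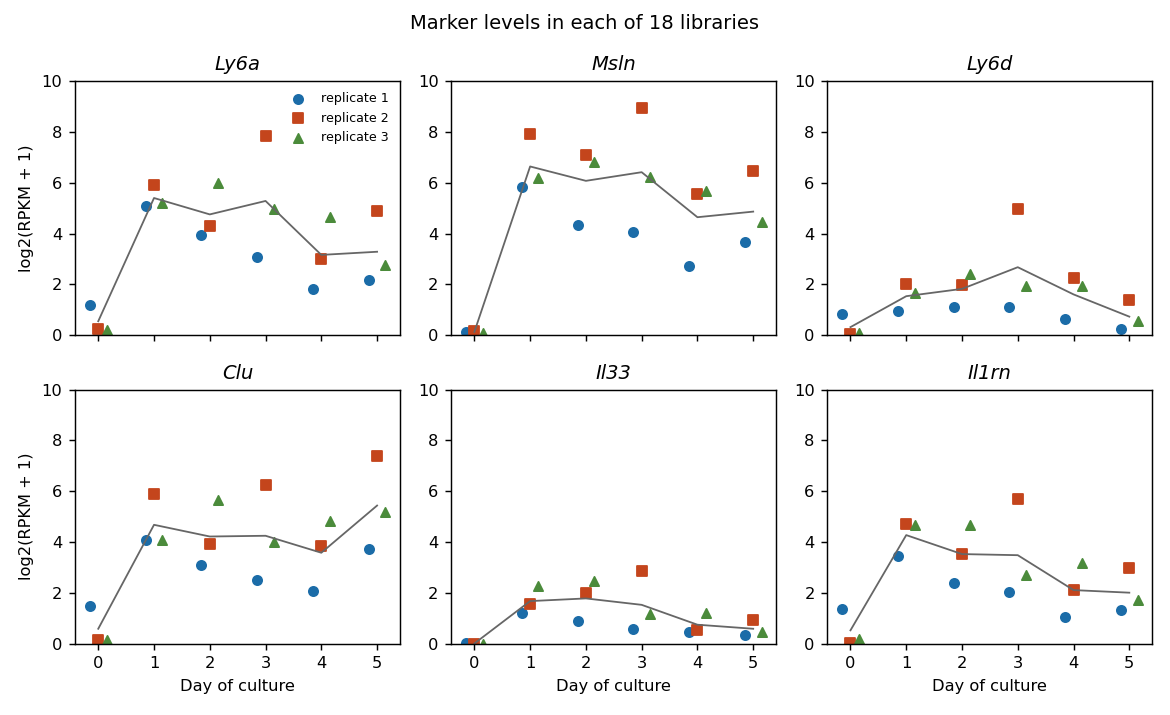
Levels of the 6 tested markers, as log2(RPKM + 1) on the y axis, against the day of culture on the x axis. Each point is 1 library, coloured and shaped by replicate, and the line joins the means of the 3 log2 values of each day. The day 0 points lie at the bottom of each panel, and day 3 replicate 2 stands at the top of the panels of Ly6a, Msln, Ly6d, Il33 and Il1rn.

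The surface proteins come first. Ly6a (Entrez 110454, chromosome 15, 74994877 to 74998031, minus strand in GRCm38.p6) encodes a GPI-anchored protein of the Ly6 family. Its level at day 0 was 1.30, 0.186 and 0.152 RPKM in replicates 1, 2 and 3, and at day 1 it was 32.8, 59.3 and 35.8. Replicates 1 to 3 had 14.6, 18.7 and 62.8 RPKM at day 2, and 7.43, 225 and 29.9 at day 3. The last days gave 2.55, 7.04 and 24.0 RPKM at day 4, and 3.55, 28.7 and 5.85 at day 5. All day 0 libraries lay below every later library, and the highest library of a day was replicate 2 on days 1, 3 and 5 and replicate 3 on days 2 and 4. The mean went from 0.546 ± 0.653 (SD, n = 3) at day 0 to 42.6 ± 14.5 RPKM at day 1, a log2 change of 4.85 ± 1.00 (SE, adjusted p = 0.00406).

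Msln (Entrez 56047, chromosome 17, 25748613 to 25754378, minus strand) encodes mesothelin, a GPI-anchored surface protein best known from the mesothelium. Its level at day 0 was 0.101, 0.135 and 0.0506 RPKM, which stood for 11, 14 and 5 reads. At day 1 it was 55.2, 238 and 72.5 RPKM in replicates 1 to 3, and at day 2 19, 134 and 112. At day 3 the values were 15.8, 490 and 73.9 RPKM, at day 4 5.55, 45.4 and 50.2, and at day 5 11.8, 86.9 and 20.8. Every library from day 1 on stood above every day 0 library, and replicate 1 was the lowest of its day from day 1 to day 5. From 0.0955 ± 0.0424 to 122 ± 101 RPKM, Msln had the largest change of the tested markers between day 0 and day 1 (log2 change 6.51 ± 1.12, adjusted p = 0.00131). The mesothelial genes Wt1, Lrrn4, Cav1 and Gpm6a stayed below 1 RPKM in all 18 libraries, Wt1 being at 0 in each. Of the other mesothelial genes listed, Upk1b rose by day 1 (0.368 ± 0.253 to 1.67 ± 0.585 RPKM, adjusted p = 0.00336) and Upk3b fell (3.14 ± 2.88 to 0.0139 ± 0.0168 RPKM, adjusted p = 0.00314). The list summed to 1.22 to 2.37 RPKM at day 1 and to 3.92 to 7.81 at day 5, and its part in the Msln values was not tested.

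Ly6d (Entrez 17068, chromosome 15, 74762056 to 74763567, minus strand), another GPI-anchored Ly6 protein, known as a marker of squamous and early B cells, was lower. It stood at 0.771, 0.0300 and 0.0630 RPKM at day 0, 0.912, 3.01 and 2.18 at day 1, and 1.13, 2.95 and 4.26 at day 2. At day 3 it was 1.18, 29.9 and 2.87 RPKM, at day 4 0.559, 3.73 and 2.82, and at day 5 0.194, 1.58 and 0.484. Day 3 replicate 2 had 7.03 times the level of the next library. The day 1 libraries lay above those of day 0, but the difference (0.288 ± 0.419 against 2.03 ± 1.05 RPKM, log2 change 1.22 ± 0.73, 95% interval -0.34 to 2.77) did not pass limma (adjusted p = 0.268), and came past it with only the days compared (0.0337).

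Ly6c1 (Entrez 17067, chromosome 15, 75044018 to 75048920, minus strand), a Ly6 protein of endothelial and immune cells, had at most 0.288 RPKM in 16 libraries. The exceptions were day 3 replicate 2 with 2.13 RPKM (162 reads) and day 5 replicate 2 with 2.35 RPKM (166 reads). The other libraries held 0 to 22 reads, 0 of them in replicates 2 and 3 of day 0. Both high libraries came from mouse 2, as did day 0 replicate 2 and day 4 replicate 2, which held 0 and 4 reads. Cut into windows of 50 bases, 32.8% of the Ly6c1 transcript sequence in the GENCODE annotation was shared with other genes, 21.5% with Ly6c2. Of Ly6a, 19% was shared, 15.0% with Ly6c1. How the reads of shared stretches were counted is not given in the sources used here, so Ly6c1 values, low or high, are uncertain. Ly6c2 was listed at 0 in 17 libraries and at 0.459 RPKM in day 3 replicate 2, the library with the highest Ly6a.

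The secreted proteins follow. Clu (Entrez 12759, chromosome 14, 65968483 to 65981548, plus strand) encodes clusterin, a secreted chaperone. It was at 1.80, 0.114 and 0.0961 RPKM in replicates 1 to 3 of day 0, and at 16.0, 58.0 and 15.8 at day 1. The values were 7.46, 14.2 and 49.4 RPKM at day 2, 4.66, 74.8 and 15.1 at day 3, and 3.2, 13.5 and 27.2 at day 4. At day 5 they were 12.3, 165 and 35.9 RPKM, the 165 being the highest Clu value of the series, 2.21 times the next. The day 0 libraries lay below all others, and no later day was set apart from its neighbours. Between day 0 (0.670 ± 0.978 RPKM) and day 1 (29.9 ± 24.3) the log2 change was 4.09 ± 1.04 (adjusted p = 0.0131). The call ended without day 0 replicate 3 (adjusted p = 0.0503) or day 1 replicate 2 (0.0621), and when limma-voom was run on recovered reads (0.0588).

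Spp1 (Entrez 20750, chromosome 5, 104435111 to 104441053, plus strand) encodes osteopontin, a secreted phosphoprotein that binds integrins and CD44. It had 16 reads over all 18 libraries and none in 13 of them. The highest values were 0.112 RPKM in day 5 replicate 2 (8 reads) and 0.0668 RPKM in day 1 replicate 3 (5 reads). At this depth no level could be told from 0 in the other 16 libraries, where 0 or 1 read was counted. Of its windows of 50 bases, 11.6% were shared with Gm42793, a predicted gene.

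The interleukin 1 family is represented by an alarmin and an antagonist. Il33 (Entrez 77125, chromosome 19, 29925113 to 29960718, plus strand) encodes interleukin 33, a nuclear cytokine released from damaged epithelium. It had 0.0228, 0 and 0 RPKM at day 0, which stood for 3, 0 and 0 reads, and 1.30, 1.97 and 3.82 RPKM at day 1. It had 0.850, 3.04 and 4.47 RPKM at day 2, 0.485, 6.31 and 1.23 at day 3, 0.393, 0.458 and 1.35 at day 4, and 0.286, 0.929 and 0.378 at day 5. Again all libraries from day 1 on exceeded those of day 0, though at levels far below those of Msln or Ly6a in RPKM. The rise to day 1 (0.00758 ± 0.0131 to 2.36 ± 1.31 RPKM) had a log2 change of 1.67 ± 0.49 (adjusted p = 0.0273). This call ended without any of 5 libraries: day 0 replicates 1, 2 and 3 (adjusted p = 0.0567, 0.0721 and 0.0745) and day 1 replicates 2 and 3 (0.0619 and 0.118).

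Il1rn (Entrez 16181, chromosome 2, 24336860 to 24351491, plus strand) encodes the interleukin 1 receptor antagonist, which blocks signalling by interleukin 1. Its values were 1.58, 0.0308 and 0.129 RPKM at day 0, 9.99, 25.0 and 24.4 at day 1, and 4.26, 10.5 and 24.4 at day 2. They were 3.16, 50.2 and 5.60 RPKM at day 3, 1.06, 3.30 and 8.11 at day 4, and 1.53, 6.81 and 2.32 at day 5. Day 0 replicate 1 reached into the range of days 4 and 5, where replicate 1 had 1.06 and 1.53 RPKM. The mean went from 0.582 ± 0.870 to 19.8 ± 8.51 RPKM between day 0 and day 1 (log2 change 3.75 ± 0.84, adjusted p = 0.0063).

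Gja1 (Entrez 14609, chromosome 10, 56377300 to 56390419, plus strand) encodes connexin 43, the subunit of gap junction channels. It stayed at or below 0.200 RPKM in every library, with 153 reads in all. The most reads, 40, were in day 1 replicate 1, followed by 25 in day 2 replicate 1, 21 in day 2 replicate 3 and 17 in day 0 replicate 1. It was listed at 0 in day 2 replicate 2, day 4 replicate 1 and day 5 replicate 1. Replicate 1 thus held the highest Gja1 value on each of days 0, 1 and 2.

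**Figure D2:**
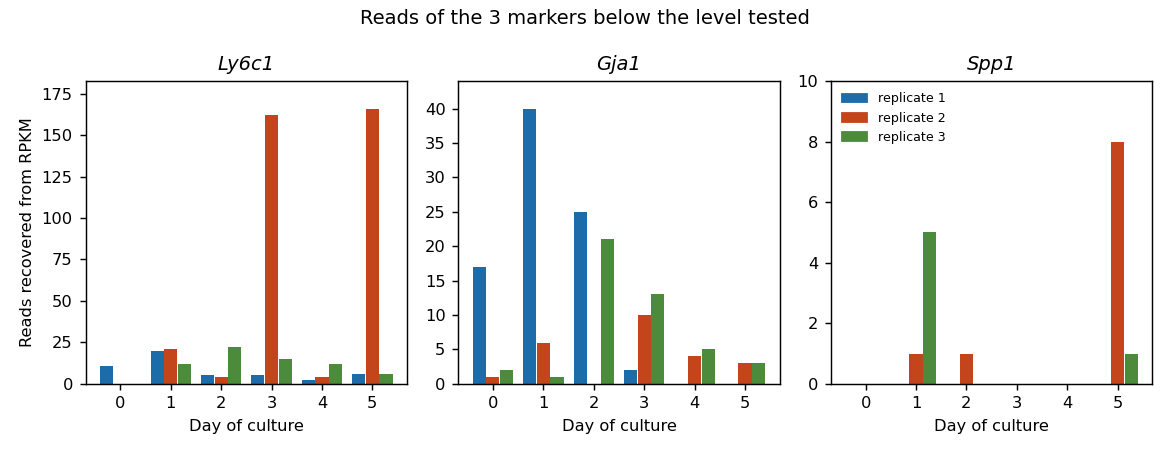
Reads recovered from the RPKM values (y axis, a separate scale in each panel) of Ly6c1, Gja1 and Spp1 by day of culture (x axis). Each bar is 1 library, coloured by replicate. Ly6c1 has 162 and 166 reads in replicate 2 of days 3 and 5 and at most 22 elsewhere, Gja1 at most 40, and Spp1 at most 8.

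Set against all genes tested, 5 of the 6 tested markers differed between days in limma's F test (25.3% of all tested genes were called). These 6 passed the filter through later days and were low at day 0, so this count only describes them. The adjusted p was 0.00526 for Msln, 0.0147 for Ly6a, 0.0283 for Il1rn, 0.0291 for Clu, 0.04998 for Il33 and 0.143 for Ly6d. Ly6d passed with the mouse as a factor (0.046) and without day 3 replicate 1 (0.0389). Only the Msln call held without any single library. The Ly6a call ended without day 0 replicate 2 (0.0559) or replicate 3 (0.0584), and the Clu call without day 0 replicate 1, 2 or 3 (0.0509, 0.112 and 0.114) or day 5 replicate 3 (0.0532). That of Il1rn ended without day 0 replicate 2 or 3 (0.0862 and 0.0868) or day 1 replicate 2 or 3 (0.0647 and 0.0575). Il33 lost its call without any 1 of 14 libraries (0.0583 to 0.114). When limma-voom was run on recovered reads, Il33 alone was called and the adjusted p of the other 4 lay between 0.0715 (Msln) and 0.133 (Clu).

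From day 0 to day 1, 5 of 6 tested markers rose (9.54% of all tested genes were called higher) and none fell (9.05% were called lower). The calls of Msln, Ly6a and Il1rn held under every alternative run, and those of Clu and Il33 ended as given above. The median log2 change of the 6 was 3.92, against -0.0023 over all tested genes. The filter kept these 6 because they reached 1 RPKM on some day, so the count called and the median describe them and support nothing further. For all 6 tested markers, all day 1 libraries lay above all day 0 libraries (21.6% of all tested genes), and for none the reverse held (19.6%). The same filter bears on this count. Ly6c1, which was not tested, also lay higher in this way. For Gja1 and Spp1 the groups overlapped.

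Between neighbouring days after day 1, limma called none of the 6, none had an unadjusted p under 0.05, limma-voom also called none, and the groups of all 9 overlapped. The background was as sparse, with 0% of all tested genes called from day 1 to day 2 and from day 2 to day 3, 0.036% from day 3 to day 4 and 0.189% from day 4 to day 5. Groups without overlap were also few over these 4 steps, with 4.18%, 0.729%, 1.55% and 5.43% of all tested genes lying higher and 2.38%, 0.882%, 3.56% and 2.78% lying lower. The median log2 change of the 6 was -0.51, 0.18, -1.22 and 0.01 over these 4 steps.

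At day 5 against day 1, none of the 6 passed limma (27.8% of all tested genes were called), and limma-voom also called none, while 2 of the 6, and 4774 of the 11111 tested genes, had an unadjusted p under 0.05. All day 5 libraries lay below all day 1 libraries for Ly6a, Il1rn and Il33, which is 3 of the 6 tested. Of all tested genes, 33.8% lay lower in this way, so 3 of 6 is not far above the background. Il1rn went from 19.8 ± 8.51 to 3.55 ± 2.85 RPKM, a log2 change of -2.27 ± 0.84 (adjusted p = 0.0543). Ly6a went from 42.6 ± 14.5 to 12.7 ± 13.9 RPKM (-2.11 ± 1.00, adjusted p = 0.119) and Il33 from 2.36 ± 1.31 to 0.531 ± 0.348 RPKM (-1.09 ± 0.49, adjusted p = 0.102). Msln had a log2 change of -1.78 ± 1.12 (adjusted p = 0.234). Clu differed in sign, with 29.9 ± 24.3 RPKM at day 1 and 71.1 ± 82.3 at day 5 (0.76 ± 1.04, 95% interval -1.45 to 2.96, adjusted p = 0.591).

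With the mouse of the titles as a factor, 4 markers were lower at day 5 than at day 1: Il1rn (adjusted p = 0.0187), Il33 (0.0277), Ly6a (0.0314) and Msln (0.0455). With the replicate number as a block Il1rn alone passed (0.035). Without day 3 replicate 2, which belongs to neither day but enters the shared estimate of the spread, Il1rn (0.0197) and Il33 (0.0379) passed.

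Day 5 still stood above day 0 for Clu (log2 change 4.85 ± 1.04, adjusted p = 0.00631) and Msln (4.73 ± 1.12, adjusted p = 0.0107), 2 of the 6 tested (11.4% of all tested genes were called higher). Both calls held without any single library. This comparison and that of day 1 share the day 0 libraries, so they are not independent, and day 5 against day 1 shares libraries with both. Ly6a was at 0.546 ± 0.653 and 12.7 ± 13.9 RPKM (2.73 ± 1.00, adjusted p = 0.0573), and passed with the mouse as a factor (0.032) or the replicate number as a block (0.0357). Il1rn, Il33 and Ly6d did not pass (adjusted p = 0.188, 0.37 and 0.678). Il33 passed with a pseudocount of 0.1 (0.0348), with only the days compared (0.0408) and with limma-voom on recovered reads (0.0238). All day 5 libraries exceeded all day 0 libraries for Ly6a, Clu, Msln and Il33 (19.2% of all tested genes lay higher in this way), and for no marker did they lie lower (34.9%). The median log2 change of the 6 was 2.11 against day 0 and -1.43 against day 1, where all tested genes had -0.1706 and -0.1532. The filter, which these markers passed through days after day 0, bears on the counts and the median against day 0. They describe the 6 and support nothing further.

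**Figure D3:**
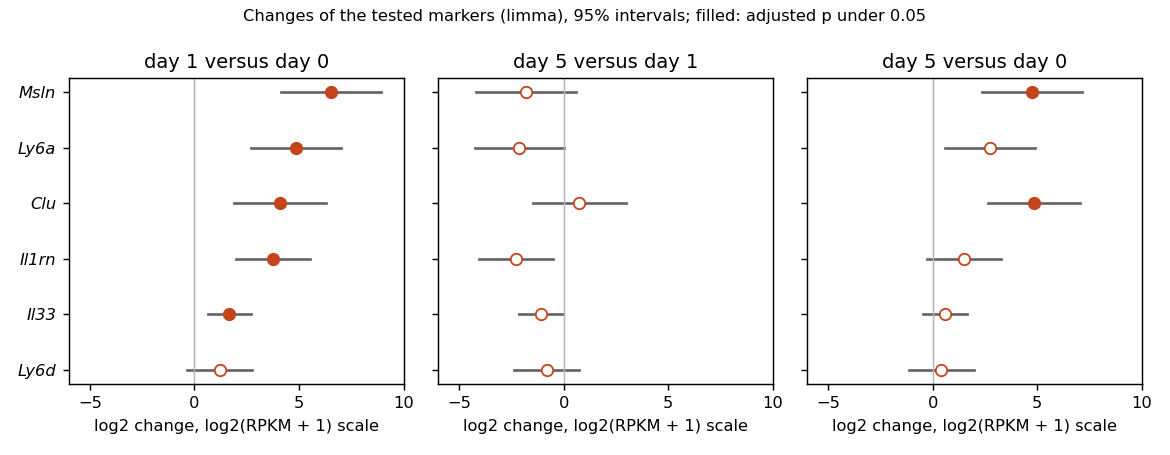
Log2 changes of the 6 tested markers (x axis, log2(RPKM + 1) scale) in 3 comparisons, 1 panel each, with 95% intervals from limma as lines. Filled points have an adjusted p under 0.05. From day 0 to day 1 all but Ly6d are filled, with Msln at 6.51, and at day 5 against day 1 none is filled and Clu alone lies above 0.

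Clu parted from the other markers late in the culture, a pattern chosen after the values were seen and given without a test. The ratio of Clu to Ly6a, taken within each library in RPKM, was 0.442 to 0.977 at day 1, 0.512 to 0.786 at day 2 and 0.333 to 0.626 at day 3. It was 1.13 to 1.92 at day 4 and 3.47 to 6.13 at day 5, so the ranges of days 4 and 5 lay above those of days 1 to 3. For Clu to Msln only day 5 lay apart from days 1 to 4, with 0.218 to 0.290 at day 1, 0.106 to 0.440 at day 2, 0.153 to 0.294 at day 3, 0.297 to 0.577 at day 4 and 1.04 to 1.90 at day 5. The ratio of Il1rn to Ly6a had no such separation, with 0.305 to 0.682 at day 1 and 0.238 to 0.430 at day 5. At day 0 most ratios rest on few reads and they spread widely, from 0.848 to 17.8 for Clu to Msln. For Clu to Ly6a the day 0 range was 0.615 to 1.38, which reached into that of day 4. The 1.38 was of replicate 1, with 165 Clu and 66 Ly6a reads.

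**Figure D4:**
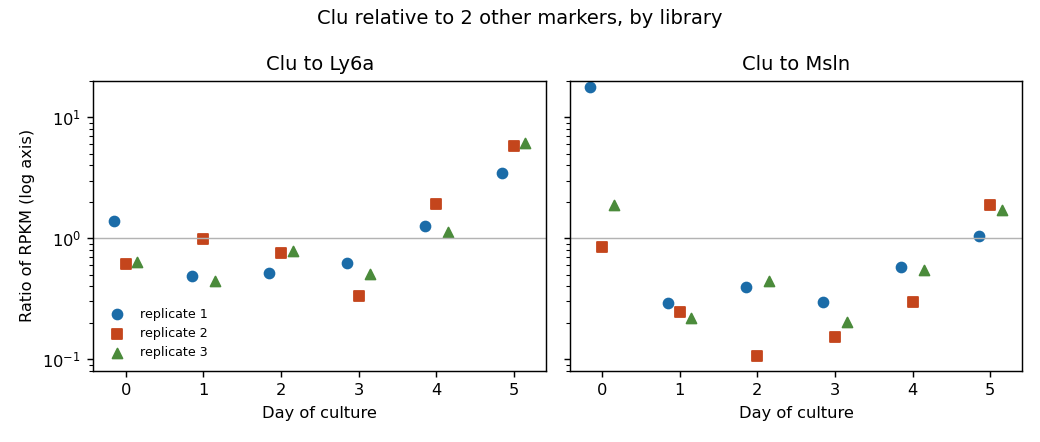
Ratio of Clu to Ly6a (left) and of Clu to Msln (right) in RPKM, on a log y axis, by day of culture (x axis). Each point is 1 library, coloured and shaped by replicate, and the grey line marks equal levels. All 3 day 5 libraries lie at 3.47 or above on the left and at 1.04 or above on the right.

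Within a day the markers ordered the libraries alike. Replicate 1 was the lowest of its day for all 6 tested markers on each of days 2 to 5, an order that 11.5% of all tested genes also had on these 4 days. At day 0 the order was the opposite, replicate 1 being the highest for Ly6a, Clu, Il33, Il1rn and Ly6d. Replicate 2 was the highest for all 6 at days 3 and 5, where it was highest for 37.0% and 28.5% of all tested genes. At day 3 other lists also set replicate 2 apart. Its summed enterocyte markers were 2989 RPKM, against 13281 and 6419 in replicates 1 and 3. Its Paneth cell markers summed to 155 RPKM, against 669 and 637, and its goblet cell markers to 416, against 969 and 1178. Its epithelial identity genes summed to 6565 RPKM, against 3138 and 4278, and its squamous markers summed to 12 RPKM, the highest of the series, against 1.16 and 2.03. Krt4 (8.10 RPKM) and Dsg3 (3.24 RPKM) made up most of that sum, while Krt5, Krt14 and Trp63 stayed below 1 RPKM in every library. At day 5 the Paneth and goblet cell sums lay the other way, being highest in replicate 2. They were 3702 RPKM, against 3215 and 2726 in replicates 1 and 3, and 2750, against 2053 and 1880. The enterocyte sum of replicate 2 was again the lowest (22343 RPKM, against 26751 and 23880). Its epithelial identity and squamous sums were again the highest (3035 against 2445 and 2630, and 2.83 against 1.12 and 0.841). The part of these differences in the marker values was not tested.

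Over the 18 libraries the 6 tested markers correlated with each other on the log2(RPKM + 1) scale, with Pearson r from 0.625 (Clu and Ly6d) to 0.964 (Ly6a and Il1rn). These points share the low day 0 libraries and the replicates of each day, so r is a description. The genes most like Ly6a were Anxa1, an annexin (r = 0.961), Bmp8b, a BMP ligand (0.959), and Tead4, a TEAD factor (0.953). Tead4 averaged 0.108 RPKM at day 0, 1.67 at day 1, 1.51 at day 2, 1.99 at day 3, 0.488 at day 4 and 0.623 at day 5. Its change from day 0 to day 1 did not pass limma (log2 change 1.25, adjusted p = 0.0532). Those of Tead1, Tead2 and Tead3 (0.08, -0.36 and -0.40) did not pass either. The genes most like Il1rn were the polarity gene Pard6b (0.964), the annexin Anxa5 (0.961) and Syt8, a synaptotagmin (0.961). For Il33 they were Trex2, an exonuclease (0.966), Nbl1, a BMP antagonist (0.938), and Syt8 (0.938). Msln was most like the annexin Anxa10 (0.950), the calpain subunit Capns1 (0.940) and Gprc5a (0.939).

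Clu had the weakest best match among these, with Ctgf, a matricellular protein and YAP target (r = 0.914), then Anxa1 (0.900) and the keratin Krt23 (0.893). Ctgf averaged 0.0974 RPKM at day 0, 3.82 at day 1, 1.63 at day 4 and 5.23 ± 5.76 (SD) at day 5. As for Clu, the day 5 mean was higher than that of day 4, with a wide spread. Without day 5 replicate 2, the library with the highest Clu, the Ctgf log2 change from day 0 to day 5 was 1.38 instead of 2.10. The call then ended (limma adjusted p = 0.0854). Ly6d was most like Fgf15 (0.934), a growth factor of the ileum that signals to the liver, Anxa8 (0.920) and Samd5 (0.915). Fgf15 averaged 0.0220 RPKM at day 0 and 14.8 at day 3.

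Other markers of fetal or regenerating epithelium, 25 listed, 24 in the table and 19 tested, were followed beside the members. From day 0 to day 1, 14 rose and none fell, and the median log2 change was 3.02 (9.54% of all tested genes were called higher and 9.05% lower). These genes passed the same filter as the markers and were chosen with earlier results known, so count and median only describe them. The calcium sensor gene S100a6 went from 11.9 ± 15.9 to 905 ± 414 RPKM, a log2 change of 6.78 ± 0.91 (adjusted p = 0.000207). The galectin Lgals3 went from 13.8 ± 16.2 to 454 ± 260 RPKM, Anxa10 from 0.134 ± 0.0460 to 48.7 ± 24.8, and S100a11 from 15.3 ± 8.56 to 347 ± 69.7. At day 5 against day 1, 11 fell and 1 rose, with a median log2 change of -1.73 (16.1% of all tested genes were called lower and 11.8% higher). The count that fell was 7, 5 and 5 without day 1 replicate 1, 2 or 3, and at day 5 it was 4 when replicate 1 was left out and 3 when replicate 3 was. With any other library left out it was 8 to 12. Lgals3 fell to 24.9 ± 16.3 RPKM (-4.11 ± 0.90, adjusted p = 0.00673), a call that held without any single library, and Areg, an EGF receptor ligand, fell from 134 ± 51.6 to 20.1 ± 13.5 RPKM (adjusted p = 0.0209), which ended without any of 4 libraries. At day 5 against day 0, 8 rose and none fell (11.4% of all tested genes were called higher and 13% lower). The count that rose was 4 when day 0 replicate 2 was left out, or 5 when day 0 replicate 3, day 5 replicate 1 or day 5 replicate 2 was.

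**Figure D5:**
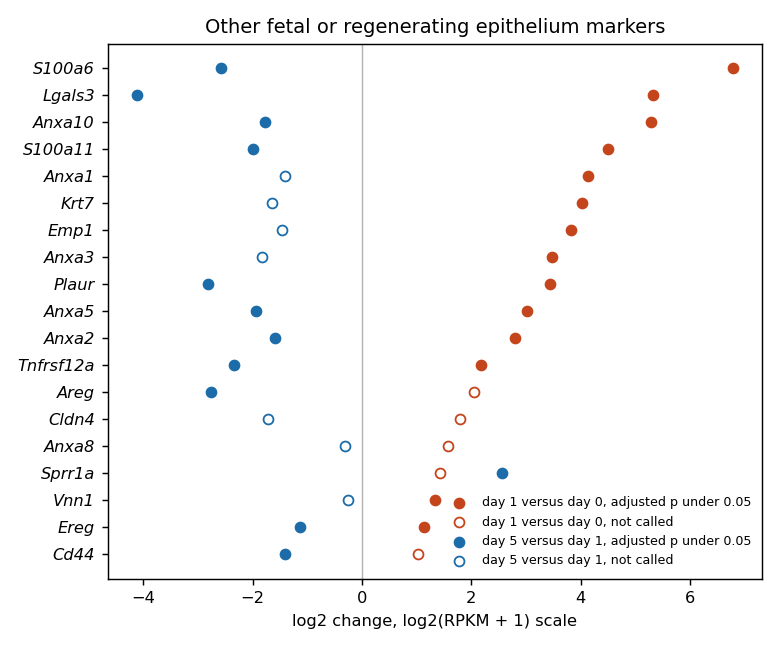
Log2 changes (x axis, log2(RPKM + 1) scale) of the 19 tested genes of the list of other fetal or regenerating epithelium markers (y axis), for day 1 against day 0 in red and day 5 against day 1 in blue. Filled points have an adjusted p under 0.05. The red points all lie above 0, and of the blue points Sprr1a alone does.

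Receptors, partners and relatives of the markers come next. Il1rl1, the receptor of interleukin 33, was at 0.0124 RPKM or below in every library, and Il1r1, the receptor that the antagonist encoded by Il1rn binds, at 0.0863 or below. Their shared co-receptor Il1rap averaged 1.13 ± 0.271 RPKM at day 0 and 0.945 ± 0.406 at day 1 (adjusted p = 0.56). Il1b was listed at 0 in every library and Il1a did not exceed 0.490 RPKM. Of 8 tested genes of the interleukin 1 family, 1 rose by day 1 and none fell (9.54% of all tested genes were called higher and 9.05% lower). It was Il18, an epithelial cytokine, from 1.09 ± 0.315 to 20.1 ± 11.9 RPKM, a log2 change of 3.21 ± 0.61 (adjusted p = 0.00248). At day 5 against day 1, 2 of the 8 rose and none fell (11.8% of all tested genes were called higher and 16.1% lower). They were Casp1 and the inhibitory receptor Sigirr, both calls ending without any of several single libraries (9 and 11). Il18 was at 41.2 ± 17.9 RPKM at day 5, so it did not share the lower day 5 means of Il33 and Il1rn.

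Of the 7 tested receptors and partners of osteopontin, clusterin and mesothelin, 1 rose by day 1 and none fell (9.54% of all tested genes were called higher). This was Itgb6, an integrin subunit of injured epithelium, from 2.10 ± 0.604 to 7.47 ± 2.30 RPKM, a log2 change of 1.43 ± 0.35 (adjusted p = 0.011, and 0.053 without day 1 replicate 2). At day 5 it had fallen to 1.49 ± 0.821 RPKM (-1.78 ± 0.35 against day 1, adjusted p = 0.004). Lrp8, which can bind clusterin, fell from 6.07 ± 1.00 to 1.57 ± 0.599 RPKM between these days (adjusted p = 0.00674), Itgav from 2.81 ± 0.0857 to 1.61 ± 0.489 (0.0251) and Cd44 from 16.3 ± 4.95 to 5.35 ± 1.03 (0.0469). Itgb6 included, 4 of the 7 fell and none rose (16.1% of all tested genes were called lower). The Itgav call ended without any of 4 libraries and that of Cd44 without any of 10. Itgb1, the common integrin beta chain, was at 55.7 ± 6.72 and 42.0 ± 6.96 RPKM (adjusted p = 0.0553).

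Among the tested connexins and pannexins other than Gja1, the pannexin gene Panx1 rose by day 1 (log2 change 0.42, adjusted p = 0.0264), a call that ended without any of 5 libraries. Gjb1, the connexin 32 gene, was at 16.2 ± 3.51 RPKM at day 0 and 21.5 ± 6.47 at day 1 (adjusted p = 0.384), far above Gja1 in RPKM. Of 5 tested Ly6 and uPAR domain genes other than the members, Plaur, the urokinase receptor, and Psca rose by day 1 (adjusted p = 0.0166 and 0.0303), and each call ended without any of 4 libraries. Over all tested genes, 9.54% were called higher between these days. Lypd8, a secreted Ly6 protein that keeps bacteria from the colon surface, rose between day 1 and day 5 from 361 ± 62.7 to 1409 ± 53.3 RPKM (1.97 ± 0.37, adjusted p = 0.00327), while Plaur fell from 32.8 ± 11.9 to 4.65 ± 4.46 RPKM (-2.81 ± 0.91, adjusted p = 0.0342, ending without any of 5 libraries). Ly6e was at 36.0 ± 1.79 RPKM at day 0, 59.7 ± 16.3 at day 1 and 22.1 ± 8.32 at day 5, with no call (adjusted p = 0.393 from day 0 to day 1 and 0.0525 from day 1 to day 5).

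Of 18 tested genes of the YAP and TEAD pathway, 3 rose and 1 fell by day 1, with a median log2 change of 0.02 (9.54% of all tested genes were called higher and 9.05% lower). Ajuba, a LIM protein that binds the LATS kinases, went from 1.89 ± 0.775 to 23.9 ± 5.66 RPKM, a log2 change of 3.12 ± 0.63 (adjusted p = 0.00361), and Lats2, one of those kinases, from 0.473 ± 0.181 to 1.34 ± 0.0255 (0.67 ± 0.14, adjusted p = 0.00407). Ctgf rose as well (2.02 ± 0.59, adjusted p = 0.0259), a call that ended without day 0 replicate 2 or 3 or day 1 replicate 2 or 3. Vgll4, which competes with YAP for TEAD, fell (-0.85 ± 0.27, adjusted p = 0.041, ending without any of 9 libraries). Yap1 itself averaged 11.7 ± 0.658 RPKM at day 0 and 11.9 ± 2.26 at day 1 (log2 change 0.01 ± 0.16, 95% interval -0.33 to 0.34). Between day 1 and day 5 Ajuba fell to 2.91 ± 2.29 RPKM (-2.80 ± 0.63, adjusted p = 0.00754).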

How the data were processed

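RNA was measured in 18 organoid libraries, 3 per day, grouped by the sample titles. The authors deposited RPKM, 1 column per library. Per the submitters' processing notes, the tools were edgeR 3.20.5, STAR 2.5.2b and bcl2fastq 2.17 and the build mm10, with no settings, while for the annotation, the use of strand and shared reads the sources used here say nothing. The values are whole multiples of 1 read's worth in 16685 of 16688 genes above 0 in at least 4 libraries (99.982%, within 0.02 of a read), which gave the implied depths and the reads per gene.

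For tests, log2(RPKM + 1) of all 18 libraries was given to limma 3.58.1 (R 4.3.3; lmFit, then eBayes with trend), two-sided, with a coefficient for each day, keeping genes that reached 1 RPKM in 3 or more libraries. A call is an adjusted p under 0.05. The added 1 makes the log2 change of a low gene smaller than that of its RPKM. The fit was tested on simulated data. Alternatives were another pseudocount and filters, rescaling, DNase-treated libraries only, a replicate block, the mouse as a factor, only the days compared, and leaving out libraries; limma-voom on recovered reads, and leaving out day 3 replicate 2 and day 5 replicate 2 together, were added after seeing the data.

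The markers and gene lists were chosen with earlier results of these data known. Named genes are the markers, the 3 genes most correlated with each tested marker, up to 4 called genes with the largest change per list and comparison, and a fixed set of receptors and partners; genes of the tissue lists (Krt4, Dsg3 and the like) and Il1a and Il1b were named after their values were seen. Replicate numbers share a mouse in the titles except for replicate 2 of days 1 and 2. Deviations from the day means correlated with a median of 0.17 in 45 pairs with the same number and -0.081 in the other 90 pairs. Some genes of the lists are not reported here.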

Additional observations from a re-analysis of the deposited data

How the results depend on the processing

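The number of tested markers called changed by more than 1.5 times under some alternatives. Over all days it was 2 instead of 5 with no filter on low values, and 1 with limma-voom on recovered reads. For day 5 against day 0 it was 4 instead of 2 with a pseudocount of 0.1, with only the days compared, and on leaving out 3 libraries at once (replicate 1 of day 0, replicate 2 of day 3, replicate 3 of day 4). For day 5 against day 1 it was 1 instead of 0 with the filter at 5 RPKM or the replicate block, 4 with the mouse as a factor, and 3 with only the days compared, without the 3 libraries just named, or without day 3 replicate 2 and day 5 replicate 2 together. The causes were not tested. Leaving out single libraries gave 1 to 6 over all days, 3 to 5 for day 1 against day 0, 0 to 2 for day 5 against day 1 and 2 to 3 for day 5 against day 0, and 0 for each pair of neighbouring days after day 1. No call of a marker changed sign under any alternative run. Beside the values given with the results, the replicate block changed no other call of a marker, and of the other named genes it ended that of Cd44 at day 5 against day 1 (limma adjusted p = 0.0533). Rescaling by median of ratios moved the median log2 change of all tested genes from -0.1532 to -0.0273 for day 5 against day 1 and from -0.1706 to -0.008 for day 5 against day 0, and brought Ly6a past the threshold in the latter (adjusted p = 0.0446).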

Other observations

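Ly6a is also an interferon-stimulated gene in many mouse cells, so a list of 26 interferon response genes was followed beside it. Of these, 13 passed the filter and were tested. From day 0 to day 1, when Ly6a rose, 1 of the 13 fell and none rose, beside 9.05% of all tested genes called lower and 9.54% higher. That gene was Tap1, the peptide transporter of antigen presentation, with 3.22 ± 1.07 and 1.63 ± 0.106 RPKM (limma adjusted p = 0.0149), a call that ended without either of 2 libraries. The median log2 change of the 13 was -0.18. Whether interferon had a part in the Ly6a values was not tested. At day 5 against day 1, 2 rose and 1 fell, beside 11.8% of all tested genes called higher and 16.1% lower. B2m, the light chain of MHC class I, went from 132 ± 18.2 to 402 ± 99.4 RPKM (log2 change 1.58 ± 0.33, limma adjusted p = 0.00527), which held without any single library. Bst2 fell from 25.1 ± 3.08 to 13.6 ± 1.89 RPKM (adjusted p = 0.0362, ending without any of 5 libraries).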
